A study of Bos grunniens and Bos taurus with 11 samples.

Results

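Lung small RNA of yaks living at 3400 m was set against that of lowland cattle at 1500 m, to ask which miRNAs differ between a native of the plateau and a closely related lowland bovine. The comparison rests on the 5 libraries labelled with these altitudes, out of 11 in the series. The yak group (T1) held 3 libraries from indigenous adult male yaks sampled at 3400 m. The control group (CON) held 2 libraries from indigenous adult male Zaosheng cattle, a local breed sampled at 1500 m. Each library came from the lung of 1 animal, and no treatment is named. Species, altitude and place of origin changed together between the groups, so their effects cannot be told apart. The other 6 libraries, from yaks at 4200 m (T2, n = 3) and 5000 m (T3, n = 3), entered the fit to estimate the spread and are otherwise given only beside T1. The tissue label of every library is lung, whereas the deposited extraction text speaks of retinas. The tissue could not be checked against 23 animal miRNAs that mark lung cells, blood cells, retina or hypoxia. They were sought by name and 0 matched, but no match was possible. The names taken from miRBase carry plant or algal prefixes, and the predicted ones carry only a number. A marker among the predicted names would thus not be seen, and the 0 does not mean absence.

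MicroRNAs are cut from hairpin precursors, first in the nucleus by Drosha and then in the cytoplasm by Dicer. Each hairpin can give a mature strand from its 5p arm and another from its 3p arm, and the strand retained by an Argonaute protein guides the silencing of mRNAs that carry a matching site. Usually 1 arm dominates, although the preferred arm can differ between tissues and between species. In the lung, miRNAs act on the vascular smooth muscle, endothelium and airway epithelium. Yaks are known for thin-walled pulmonary arteries and a weak constriction of them under hypoxia.

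Every library listed the same 1377 names, in RPM (reads scaled to the library's total of reads under listed names). Of these, 1046 were predicted from the sequenced reads, on 856 hairpins of which 190 had both arms listed. Predicted names are written here by their number and arm, such as m0552-3p. The remaining 331 were known names taken from miRBase, and their prefixes belonged to 50 plant or algal species and 0 times to cattle. Known names are written in full, with the endings of the files. Division by the value of 1 read returned whole reads for all 4651 values above 0, within 0.01 reads. Depth was 2428001 and 2927856 reads in CON and 1536041, 2428679 and 2527924 reads in T1. A single read was therefore worth 0.342 to 0.651 RPM, and small differences between names with few reads were not detectable. In bulk tissue, fewer cells of a type and less miRNA per cell cannot be told apart.

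The libraries of 1 group were not closely alike. Over the 310 tested names, the rank correlation (Spearman) was 0.767 between the CON libraries. It was 0.932 between T1 2 and T1 3, but 0.800 and 0.795 between T1 1 and these. CON 2 stood at 0.907 and 0.902 with T1 2 and T1 3, closer than it stood to CON 1. These are descriptions over names of the same libraries, which differ in depth. CON 1 and T1 1 stood apart and are left out in turn where a result rests on them. CON 1 held reads of 28 known names, against 110 in CON 2 and 93 to 113 in T1. CON 1 and T2 2, the libraries with few known names, also had raw reads of lower base quality than all other libraries. The quality summary is that of the paper. Whether CON 1 stood apart through its sequencing or through the animal was not tested. T1 1 was the shallowest and its most abundant name was not that of the other 4 libraries.

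The predicted m1080-5p supplied the largest share of reads in 4 of the 5 libraries. It took 46.5% and 64.5% of the reads in CON, and 21.7%, 55.5% and 55.0% in T1. The 95% Wilson intervals of these shares reached at most 0.0652 percentage points to either side, and cover counting error only. The group means were 55.5% ± 12.8 (SD, n = 2) in CON and 44.1% ± 19.3 (SD, n = 3) in T1, and the libraries overlapped (difference -11.4 percentage points, exact two-sided permutation test p = 0.6). The smallest p that this exact test of 2 against 3 libraries can give is 0.2, reached when the groups do not overlap. The low T1 mean came from T1 1 alone, since the difference was -0.251 percentage points without it.

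**Figure D1:**
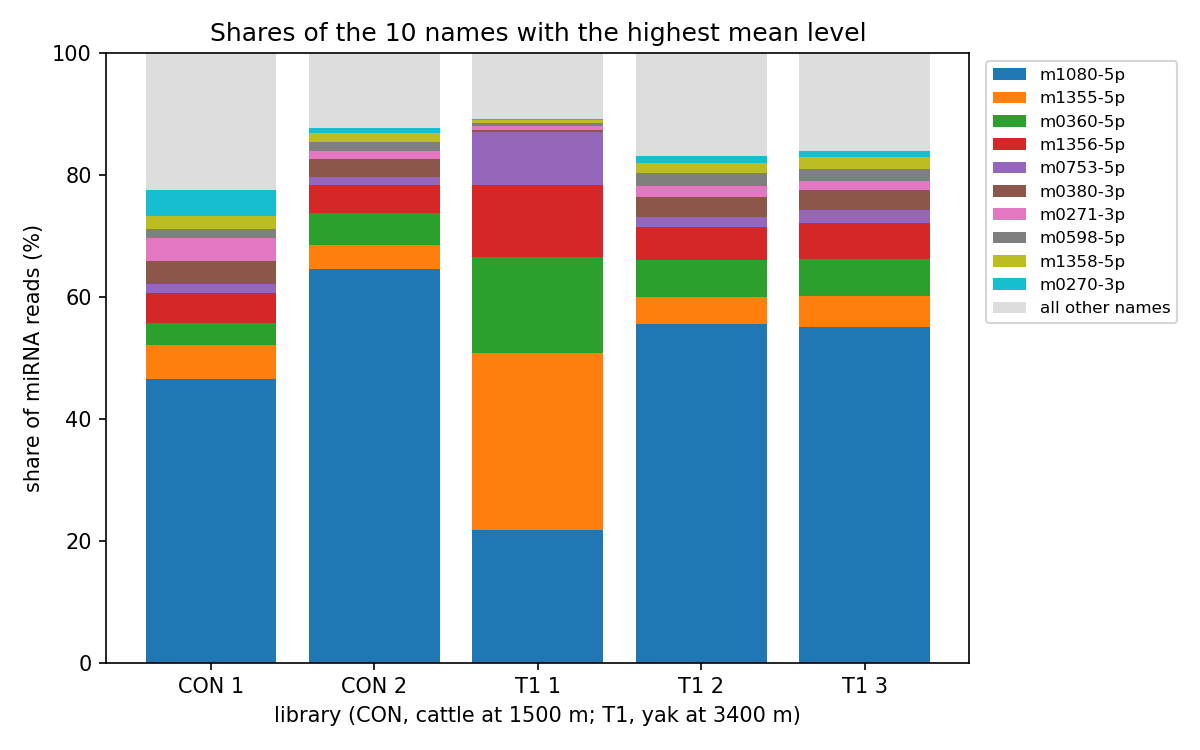
Stacked bars give, for each CON and T1 library, the share of miRNA reads (%) held by each of the 10 names with the highest mean level over the 5 libraries, with all other names in grey. T1 1 has 21.7% of its reads under m1080-5p and 29.0% under m1355-5p, while T1 2 and T1 3 resemble CON 2.

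In T1 1 the leading name was m1355-5p with 29.0% of the reads, against 4.56% and 5.01% in T1 2 and T1 3 and 5.64% and 3.96% in CON. The same name also led in T3 1 and T3 2, with 34.8% and 29.0% of the reads. Another 3 abundant names were higher in each T1 library than in both CON libraries. The level of m0360-5p was 36005 and 53219 RPM in CON and 157753, 60424 and 61978 RPM in T1. That of m1356-5p was 49180 and 44973 RPM in CON and 119049, 53484 and 58791 RPM in T1. That of m0753-5p was 14638 and 13145 RPM in CON and 85779, 17424 and 20637 RPM in T1. In all 3 the groups did not overlap, but T1 2 and T1 3 lay close above CON and T1 1 far above. Their log2 differences were 0.94 ± 0.63 (SE), 0.62 ± 0.68 and 1.18 ± 0.89, with adjusted p of 0.615, 0.720 and 0.643.

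Of the 10 names with the highest mean level, the others overlapped between the groups. Among them m0380-3p had 37696 and 29776 RPM in CON and 4282, 32979 and 33548 RPM in T1. The 3p arms m0270-3p and m0271-3p, with consecutive numbers, were highest in CON 1. Their levels there were 42334 and 38546 RPM, against 8565 and 13200 RPM in CON 2 and from 2497 to 16471 RPM in T1. For m0598-5p and m1358-5p, T1 1 was again the lowest library, at 4749 and 4555 RPM against 14071 to 21814 RPM in the other 4. The 10 most abundant names of a library together held 79.2% and 88.2% of the reads in CON and 91.9%, 84.4% and 85.4% in T1 (exact two-sided permutation test p = 0.6). Direction was not stable, since the difference of 3.53 percentage points became -0.980 without CON 1.

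To find names that differed between T1 and CON, log2(RPM + 1) values of names averaging 1 RPM or more across the 11 libraries were fitted with limma. A name was called at an adjusted p (Benjamini-Hochberg) under 0.05 with at least a 2-fold difference. Of 310 tested names 1 was called, the predicted m0552-3p, which was higher in T1 (0.323%). A further 19 names passed an unadjusted p under 0.05 with a 2-fold difference, so that 20 did in all (6.45%), 10 of them higher (3.23%) and 10 lower (3.23%). On the recovered reads DESeq2 called 5 names (1.61%) and edgeR 2 (0.645%). The 3 T1 libraries lay above both CON libraries for 49 names (15.8%) and below both for 38 (12.3%). Over all 310 names the median log2 difference was -0.12. Scaling by the median ratio between libraries moved it to 0.17, and then 173 rather than 144 names were on the higher side.

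**Figure D2:**
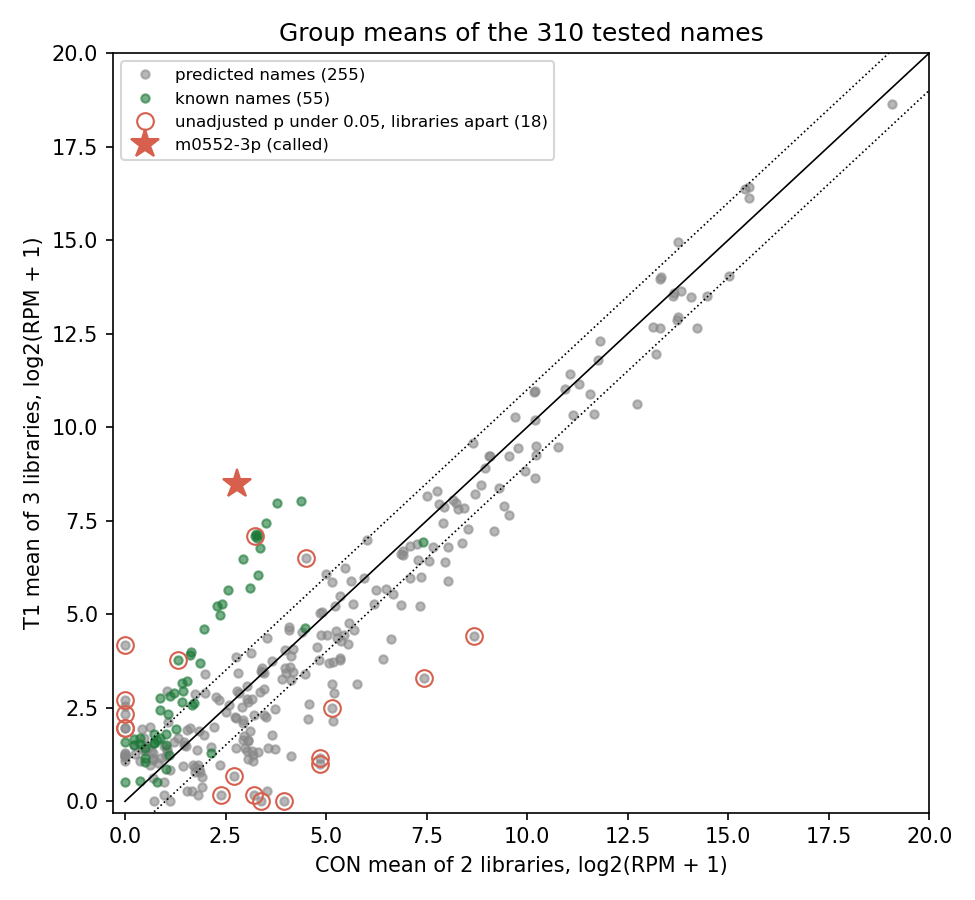
Each point is 1 of the 310 tested names, with the CON mean of log2(RPM + 1) on the horizontal axis and the T1 mean on the vertical axis; the solid line marks equality and the dotted lines a 2-fold difference. The called m0552-3p (star) lies far above the line, known names (green) lie above it as a band, and 18 other names with an unadjusted p under 0.05 and libraries apart are ringed.

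Of the 255 predicted names tested, 93 had a higher T1 mean and the others a lower one, with a median log2 difference of -0.44, and 77 were at least 2-fold lower against 26 at least 2-fold higher. Of the 55 known names tested, 51 had a higher T1 mean, with a median of 1.5. Scaling by the median ratio brought the predicted names to 122 higher and 133 lower, with a median of -0.05, 46 at least 2-fold higher and 53 at least 2-fold lower. Both splits also moved with CON 1. Without that library 126 predicted names were higher and 124 lower, and the median of the known names was 0.40 with 43 of 55 higher.

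The called name, m0552-3p, is a predicted 3p strand with no target or function given. It had 8 and 29 reads in CON against 312, 1143 and 1213 reads in T1. As levels these were 3.29 and 9.90 RPM in CON and 203, 471 and 480 RPM in T1. The lowest T1 library was thus well above the highest CON library. The group means were 6.60 RPM ± 4.67 (SD, n = 2) and 385 RPM ± 157.2 (SD, n = 3), a ratio of 58.3. The ratio was 38.8 without CON 1 and 117 without CON 2. The log2 difference was 5.71 ± 0.97 (SE), with an adjusted p of 0.00889 in limma. DESeq2 and edgeR on the recovered reads also called it. It stayed higher in T1 in all 24 alternative fits, at log2 4.50 to 6.39, and was called in 21, with adjusted p from 3.96e-09 to 0.292. The call was lost without CON 1 (adjusted p = 0.292), without T1 2 (adjusted p = 0.0741) and without both libraries with few known names, CON 1 and T2 2 (adjusted p = 0.105). Against the same cattle libraries, the log2 difference was 5.82 in T2 and 5.39 in T3.

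The 5p strand of the same hairpin did not follow it. For m0552-5p, CON had 45 and 282 reads and T1 had 0, 207 and 309 reads. The groups overlapped, with 18.5 and 96.3 RPM in CON and 0, 85.2 and 122 RPM in T1 (log2 difference -0.99 ± 1.75, adjusted p = 0.838). The 5p strand thus made up 84.9% (95% Wilson interval 72.9 to 92.1) and 90.7% (86.9 to 93.4) of the reads of both strands in CON. In T1 it made up 15.3% (13.5 to 17.4) in T1 2 and 20.3% (18.4 to 22.4) in T1 3. In T1 1 it was 0 of 312 reads, which allows a share of up to 0.962% by a limit of 3 reads (Wilson interval 0 to 1.22). The strand with more reads was therefore 5p in both cattle and 3p in each of the 3 yaks.

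**Figure D3:**
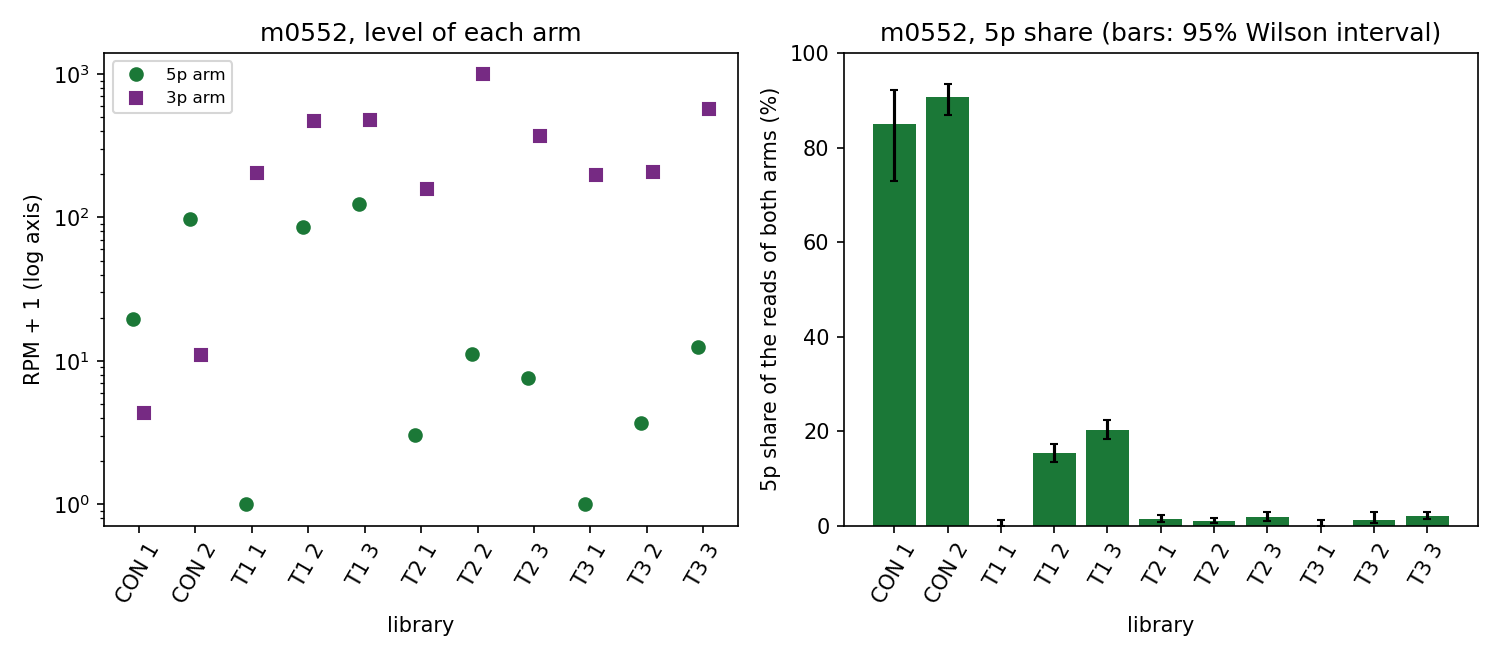
The left panel gives the level of each strand of hairpin m0552 in all 11 libraries as RPM + 1 on a log axis, and the right panel the 5p share (%) of the reads of both strands with its 95% Wilson interval. The 5p share is 84.9% and 90.7% in CON, 0 to 20.3% in T1 and at most 1.96% in T2 and T3.

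In the yaks from higher altitudes the 5p share ranged from 1.0% to 1.75% in T2 and from 0 to 1.96% in T3. T1 2 and T1 3 lay between the cattle and these yaks, while T1 1, with no 5p read, lay at their low end. The level of m0552-5p did not pass the test between T1 and the mean of T2 and T3 (log2 difference 2.21 ± 1.35, adjusted p = 0.989).

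The ratio of the 2 strands was tested for the 82 hairpins whose both strands passed the filter. The log2 ratio of 5p over 3p of m0552 differed by -6.70 ± 1.45 (SE) between T1 and CON. Its adjusted p in limma was 0.0501, just above the threshold, so 0 of 82 hairpins were called (0.0%) and 4 passed an unadjusted p under 0.05 with a 2-fold difference (4.88%). The adjusted p of m0552 ran from 0.00627 to 0.747 over 15 alternatives and was under 0.05 in 5 of them, those with a pseudocount of 10 RPM, with the replicate number as a term, or without any single T1 library. Its direction was the same throughout.

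For most other hairpins the leading strand was the same in both groups. Of the 82 hairpins, 35 had more 5p reads in all 5 libraries and 22 more 3p reads in all 5. A further 24 were mixed within a group. The m0552 hairpin was the 1 hairpin with 5p ahead in both CON and 3p ahead in all 3 T1 libraries, and 0 hairpins showed the opposite. The strand ratio did not overlap between the groups for 9 hairpins with a higher 5p part in T1 (11%) and 11 with a lower one (13.4%).

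Next to m0552, the smallest p belonged to m0150, which had 251 and 20 reads of 5p and 9 and 0 reads of 3p in CON. In T1 its 5p reads were 1, 9 and 0, with 0 reads of 3p in each, so the ratio rests on few reads (log2 difference -2.73 ± 0.86, adjusted p = 0.341). The m0540 hairpin, a 3p-rich one, had 5p shares of 0.608% and 1.0% in CON and 3.70%, 1.99% and 9.25% in T1. All 3 T1 shares were above CON, from 1, 7 and 21 reads of 5p (log2 difference 2.49 ± 1.05, adjusted p = 0.722). For m0786, 29918 and 39848 reads of 5p in CON came with 0 reads of 3p in either, while T1 had 1, 17 and 9 reads of 3p beside 6878, 45603 and 55367 reads of 5p. The 5p level of m0786 did not differ beyond its error (log2 difference -0.08 ± 0.92) and m0786-3p had reads in T1 alone among these libraries. Of the other hairpins among the 5 smallest p in each direction, m0064, m0036, m0523, m0266, m0149 and m1531, the adjusted p was 0.722 each.

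Among names higher in T1 without an adjusted call, the hairpin m1030 was seen in yak alone, on both strands. Its 3p strand had 0 and 0 reads in CON and 15, 71 and 44 in T1. It was the 1 name with at least 10 reads in every T1 library and 0 in CON. Set against the limit of 3 reads in each CON library, its mean level was at least 16.6-fold higher in T1 (18.8 RPM ± 9.81, SD, n = 3). The limma fit gave a log2 difference of 4.18 ± 1.11 and an adjusted p of 0.124, whereas DESeq2 and edgeR called it. The 5p strand had 8, 13 and 15 reads in T1 and 0 in CON, with a mean level at least 4.87-fold higher (adjusted p = 0.401 in limma), and DESeq2 called it (adjusted p = 0.0307). Reads of m1030-3p were present in every other yak library too, from 10 to 174.

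Other predicted names had few or no reads in CON. Reads of m1608-5p were 7, 6 and 5 in T1 and 0 in CON, and those of m0504-5p were 10, 4 and 14 in T1 and 0 in CON. Their mean levels were at least 2.66-fold and 4.04-fold higher, from few reads. The 3p strand of m1608 had 4 and 0 reads in CON and 1, 6 and 4 in T1, and the groups overlapped. The 3p strand of m0504 had 0 reads in all 5. The more abundant m1068-5p had 36 and 93 reads in CON and 185, 135 and 275 in T1, or 23.3 RPM ± 12.0 (SD, n = 2) against 94.9 RPM ± 34.6 (SD, n = 3). Its groups did not overlap (log2 difference 2.0 ± 0.89, adjusted p = 0.540).

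Lower in T1, the clearest pattern was on the hairpin m0229, again on both strands. The 5p strand had 682 and 307 reads in CON against 5, 31 and 38 in T1. Its level was 193 RPM ± 124 (SD, n = 2) in CON and 10.4 RPM ± 6.25 (SD, n = 3) in T1, 18.6-fold higher in CON, or 10.1-fold without CON 1. The 3p strand had 21 and 23 reads in CON and 0, 0 and 1 read in T1. The pooled ratio of CON over T1 was 53.3 with an exact 95% counting interval of 9.09 to 2154. This interval covers counting error only, not the spread between animals. Both CON libraries were above all 3 T1 libraries on either strand. The log2 differences were -4.14 ± 1.11 for 5p and -3.05 ± 0.69 for 3p, with adjusted p of 0.124 and 0.0751. DESeq2 called the 5p strand. The 3p strand was called in 5 of 24 alternative fits.

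**Figure D4:**
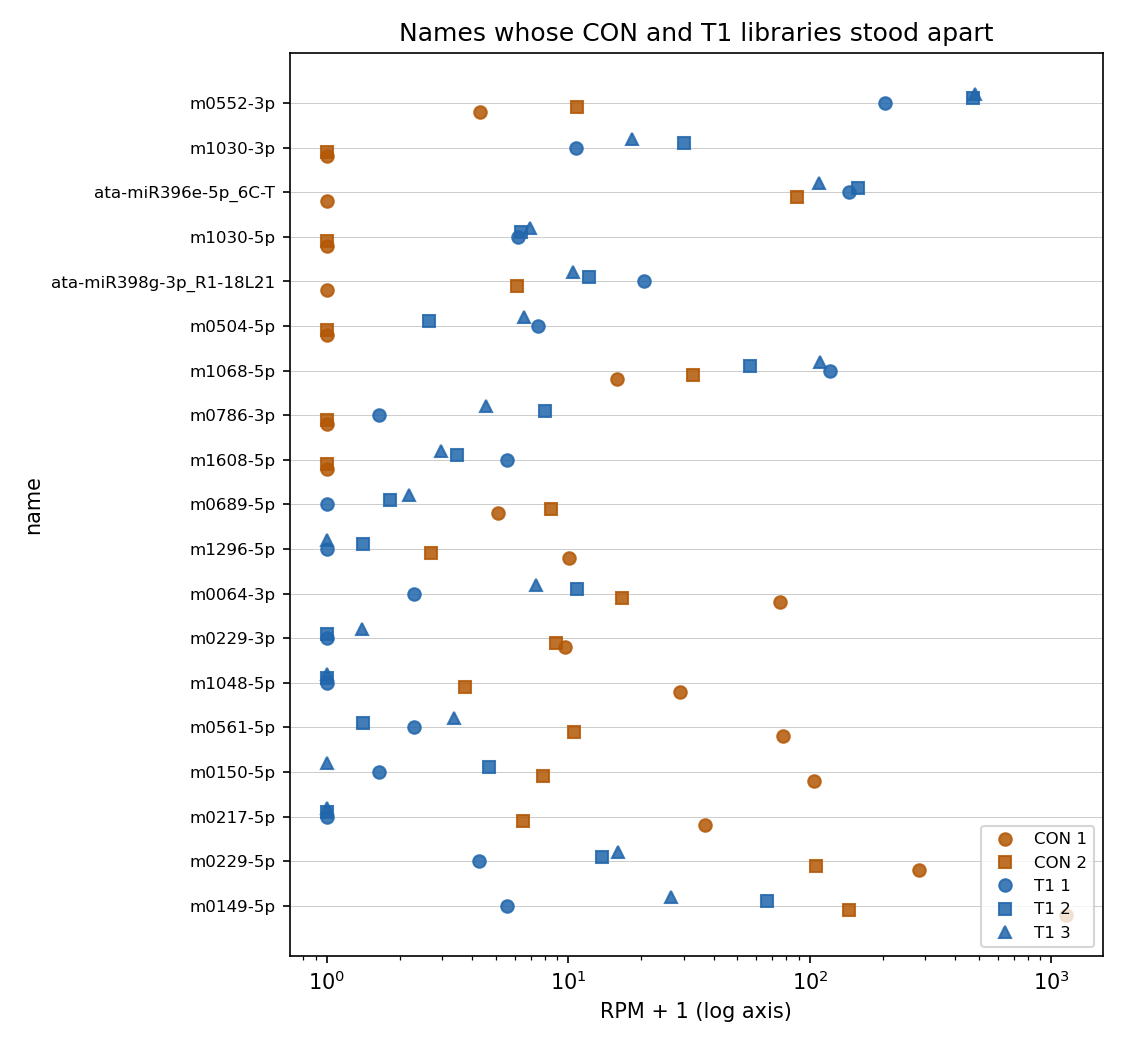
Each row is 1 of the 19 names with an unadjusted p under 0.05, at least a 2-fold difference and no overlap between groups, and each symbol is 1 library, placed by its level as RPM + 1 on a log axis. CON (orange) and T1 (blue) lie apart in every row for each name, and m0552-3p has the highest T1 levels among them.

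Most of the other lower names differed in size between the 2 cattle. The level of m0149-5p was 1144 and 144 RPM in CON and 4.56, 65.5 and 25.7 RPM in T1. That of m0150-5p, the next number, was 103 and 6.83 RPM in CON and 0.651, 3.71 and 0 RPM in T1. That of m0561-5p was 76.6 and 9.56 RPM in CON and 1.30, 0.412 and 2.37 RPM in T1. In each the groups did not overlap, but CON 1 was several times above CON 2. The log2 differences were -4.25 ± 1.91, -3.85 ± 1.37 and -3.69 ± 0.98, with adjusted p of 0.540, 0.436 and 0.124. DESeq2 called m0561-5p. T1 was not typical of all yaks for m0149-5p, since T2 1 held 22200 reads and T2 2 held 1219.

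Reads of m0217-5p were 87 and 16 in CON and 0 in each T1 library, and those of m1048-5p were 68 and 8 in CON and 0 in each T1 library. Against 3 reads per T1 library, their mean levels were at least 14.2-fold and 10.5-fold lower in T1 (adjusted p = 0.181 for both). Both bounds rest on CON 1, since they were 3.75-fold and 1.87-fold with CON 2 alone. Of the 6 other yak libraries, 3 held m0217-5p and 2 held m1048-5p. The remaining 3 names, m0064-3p, m1296-5p and m0689-5p, had log2 differences of -2.64 ± 1.22, -2.22 ± 0.91 and -2.06 ± 0.92 (adjusted p = 0.540 each). The 5p strand of m0064 was abundant, at 17124 and 6047 RPM in CON and 6808, 6641 and 5789 RPM in T1, and its groups overlapped. The strands opposite m0149, m0150, m1048 and m1296 had at most 18 reads in any of the 5 libraries, and for none of them were the groups apart.

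Taking both strands of the 82 hairpins, 42 had lower and 10 higher T1 means on both, and 30 had 1 strand on each side. Both strands were at least 2-fold lower in 12 hairpins and at least 2-fold higher in 1, m1030. In all 12 the CON 1 level was above that of CON 2 on both strands, and in 3 of the 12 the groups were apart on both strands.

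Reads under known names, which carry plant or algal prefixes, came to 315 and 1540 RPM in CON and 2157, 2419 and 1741 RPM in T1. All 3 T1 libraries were above CON, but CON 2 was close to T1 3 and CON 1 far below. The difference of the log2 levels was 1.58 (exact two-sided permutation test p = 0.2, the smallest possible). Without CON 1 it was 0.44. The source of these reads was not tested.

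Of the known names, 110 belonged to 25 conserved plant families. Of these names 38 were tested and 36 had a higher T1 mean, with a median log2 difference of 1.62, beside -0.12 over all tested names. In limma and DESeq2 0 were called. The unadjusted p was passed by 2 of the 38, beside 20 of all 310 tested names (6.45%). The 2 were ata-miR396e-5p_6C-T and ata-miR398g-3p_R1-18L21. The first had 0 and 255 reads in CON and 222, 383 and 272 in T1 (log2 difference 3.86 ± 1.74, adjusted p = 0.540). The second had 0 and 15 reads in CON and 30, 27 and 24 in T1 (2.48 ± 1.13, adjusted p = 0.540). When CON 1 and T2 2, with few known names each, were marked by a covariate, the median of the 38 names was 0.45.

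The miR166 family (with miR165), which in plants silences HD-ZIP III transcription factors, was the most abundant. Its summed level was 3.29 and 368 RPM in CON and 542, 578 and 411 RPM in T1. The miR482 family, which in plants acts on disease resistance genes, had 0.412 and 284 RPM in CON and 451, 486 and 353 RPM in T1. The miR396 family, which in plants silences growth-regulating factors, had 0 and 279 RPM in CON and from 314 to 453 RPM in T1. In all 3 families CON 2 was below each T1 library by less than it was above CON 1. The miR159 family, a regulator of MYB factors in plants, followed with 5.35 and 118 RPM in CON and 146, 177 and 130 RPM in T1.

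**Figure D5:**
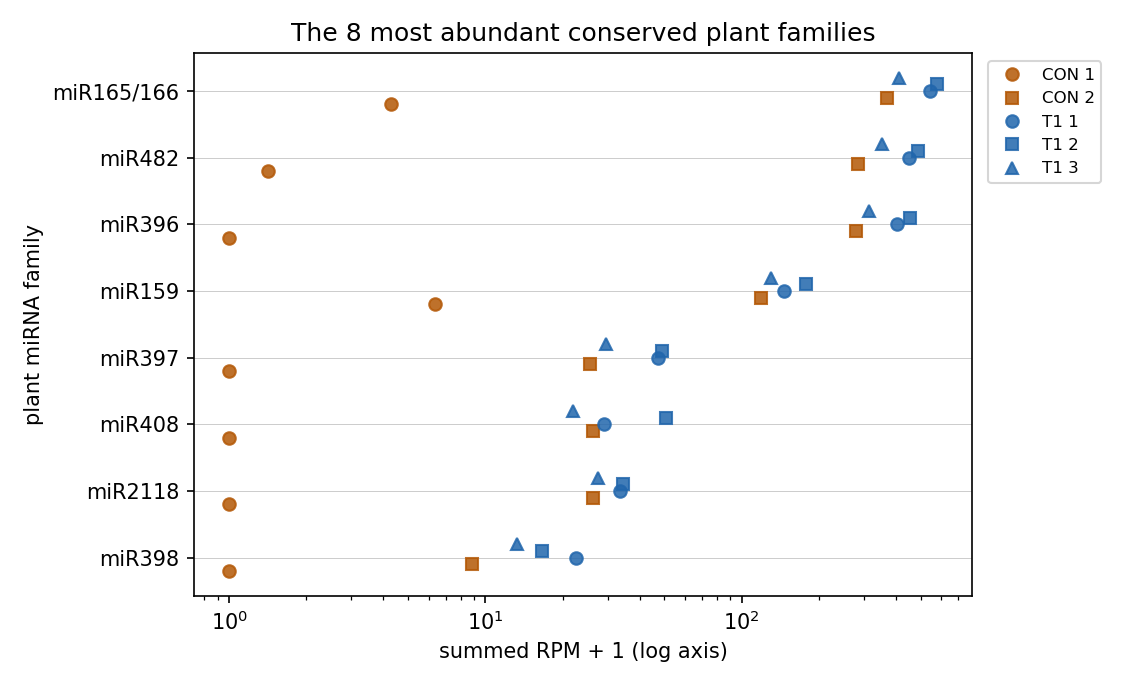
Each row is 1 of the 8 conserved plant miRNA families with the highest mean level, and each symbol is 1 library, placed by the summed level of the family's names as RPM + 1 on a log axis. CON 1 lies at or near 0 RPM in all 8 rows, and CON 2 lies beside or just below T1.

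The miR397, miR408, miR2118 and miR398 families had 0 RPM in CON 1. In CON 2 they had 24.6, 25.3, 25.3 and 7.86 RPM, and their T1 means were 40.8 RPM ± 10.7 (SD, n = 3), 32.9 ± 15.1, 30.8 ± 3.74 and 16.5 ± 4.66. CON 1 had 0 reads in 21 of the 25 families, of which 23 had a read in some of the 5 libraries. CON 2 was below the T1 range in 11 families, within it in 13 and above it in 1. The 13 include miR172 and miR395, which had 0 reads in all 5 libraries. The miR166 family took a like part of the conserved reads in each library, from 30.6% to 31.6%, although CON 1 had only 26 such reads. The next 3 families did not keep their parts. In CON 1, miR159 had 13 reads, miR482 had 1 and miR396 had 0. In CON 2 and in each T1 library, miR482 and miR396 each had more reads than miR159.

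A plant-prefixed name counted in the miR159 family was seen in cattle alone, and it supplied all miR159 reads of CON 1. Reads of bdi-miR159b-5p.2_R15-1L23 were 13 and 14 in CON and 0 in each T1 library, and 0 also in all 6 other yak libraries. Against 3 reads per T1 library, its level (5.07 RPM ± 0.402, SD, n = 2) was at least 3.48-fold lower in T1. Its mean over the 11 libraries was too low for the filter, so it was not tested in the main fit. With no filter, or with the filter mean taken over CON and T1, limma called it lower in T1. The same held when any 1 yak library other than T1 2 was left out. Outside the fit with no filter, it was tested only through its reads in CON, the group where it was high. With 0 reads in every yak library, these calls add no support beyond the reads themselves. Without T1 2 it was tested and not called, and without either CON library its mean was too low for the filter. Together with m0217-5p it made the 2 names with at least 10 reads in both CON libraries and 0 in T1.

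The study placed 9 miRNAs, all known names, in its regulatory networks. Of these, pab-miR396a is named only for the network among yak altitudes, not for that of yaks against cattle. The paper reports the miRNAs of the yak and cattle network as all upregulated. The paper's counts of differing miRNAs between CON and T1, made with DESeq2, were larger than those called here and went in both directions. The list of 9 was drawn from these samples and is not independent evidence of direction. Of the 9, 7 were tested, 7 had a higher T1 mean with a median log2 difference of 1.58, and 0 were called in limma or DESeq2 or passed the unadjusted p. With the covariate for CON 1 and T2 2, 5 of the 7 were higher and the median was 0.44. The largest, ata-miR166d-3p_R1-20L21, had 3 and 567 reads in CON and 433, 710 and 537 in T1 (3.64, adjusted p = 0.540). Reads of sly-miR482e-3p_R1-21L22 were 1 and 215 in CON and 175, 286 and 236 in T1. For both, the T1 levels were above both CON libraries, but CON 2 lay close below. Reads of gma-miR6300_R2-18L18 were 0 and 7 in CON and 5, 18 and 19 in T1, and those of ppt-miR902f-3p_R15-1L20 were 0 in CON and 11, 2 and 2 in T1. The other 5 had at most 18 reads in any of these libraries. Of them ptc-miR6471_R18-4L21, not tested, had 6 and 4 reads in CON and 0 in T1.

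The number of names with a read was compared at the depth of the smallest library, 1536041 reads. At that depth 354 and 397 names were expected in CON and 407, 441 and 434 in T1. Every T1 library was above both CON libraries, by 51.9 names on average (exact two-sided permutation test p = 0.2, the smallest possible). Names with at least 10 reads, counted over all reads and so at unequal depth, were 203 and 214 in CON and 154, 218 and 207 in T1 (difference -15.5, exact permutation test p = 1.0). At the depth of the smallest library they were 185 and 179 in CON and 154, 195 and 182 in T1 (difference -5.17, exact permutation test p = 1.0). Both differences were above 0 without T1 1, at 4.0 and 6.28 names. Over the 5 libraries 901 names had a read, 392 of them in both groups, 346 in T1 alone and 163 in CON alone. Of the 346, 301 were in 1 T1 library and 11 in all 3, with a median of 3 reads over the group. Of the 163, 152 were in 1 CON library.

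Set against the other yaks, T1 had 0 called names of 310 in limma (0.0%) and 0 in edgeR, while 2 passed an unadjusted p under 0.05 with a 2-fold difference (0.645%). They are named here after their values were seen. Reads of m0860-5p were 25 and 42 in CON and 0, 21 and 43 in T1, but 0 in all 6 libraries of T2 and T3. Its log2 difference of T1 minus the mean of T2 and T3 was 2.48 ± 0.78 (adjusted p = 0.989), and DESeq2 called it (adjusted p = 0.0176). Reads of m0366-5p were 0 and 0 in CON, 0, 61 and 17 in T1, and from 0 to 5 in T2 and T3, so it had 0 reads in T1 1 and in both cattle (1.91 ± 0.84, adjusted p = 0.989). T1, T2 and T3 share the same cattle libraries as control, so their differences from CON are not independent.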

How the data were processed

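Small RNA was extracted from lung and sequenced by the authors, who placed reads of both species on the yak assembly BosGru_v2.0, predicted miRNAs with MIREAP and took known names from miRBase. The versions of these tools are not given in the sources used here. The deposited values are RPM, made by the authors. Cattle reads were thus placed on the genome of another species, and the part of this in the differences was not tested. Samples were grouped by the altitude in the labels. Whole reads were recovered by dividing by the smallest value above 0 of each library. The names and lists described were chosen with earlier results of these data known. They are the called names, up to 10 per direction with the smallest unadjusted p and no overlap, the 10 most abundant, the 9 network miRNAs, names with at least 10 reads in one group and 0 in the other, the 8 most abundant plant families, the 5 strand ratios with the smallest p per direction, and the opposite strands.

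limma 3.58.1 with a trend in the mean was fitted to log2(RPM + 1) of all 11 libraries with 1 mean per group, so fold changes of low names are understated. Alternatives used edgeR 4.0.16 and DESeq2 1.42.0 on the recovered reads, other scalings, filters and pseudocounts, and each library left out. Single values were compared by exact permutation. The scripts were tested on simulated data. Each library is 1 animal, and no pair of libraries of the same group differed by less than the sampling noise.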

Additional observations from a re-analysis of the deposited data

How the results depend on the processing

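The number of names called between T1 and CON, 1 in limma, was 5 with DESeq2, 2 with edgeR, 2 with a pseudocount of 0.1 RPM and 2 with 10 RPM, 6 with no filter on low values, 3 with the mean taken over CON and T1, 0 with at least 10 reads in every library (fewer names tested), 0 with summed arms and variants, 0 without CON 1 and T2 2 (an alternative chosen after seeing the data) and 20 with the unadjusted p. Leaving out 1 library gave 0 to 3, with 0 without CON 1 and without T1 2. Between T1 and the other yaks it was 1 with DESeq2, 2 with the unadjusted p and 0 to 1 with 1 library left out. Called strand ratios numbered 1 with a pseudocount of 10 RPM, 4 with the unadjusted p and 0 to 1 with 1 library left out. The 2 conserved family names of the unadjusted p were otherwise not called. The paper describes the libraries of a group as biological replicates and names no pairing of animals across groups. Deviations of same-numbered libraries correlated from -0.82 to 0.61 over 15 pairs and 5 exceeded 0.1, which cannot decide on pairing. With the replicate block the counts were 1 for T1 against CON, 1 for the strand ratio and 0 for T1 against the other yaks.

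With 1 library left out, the difference in the m1080-5p share ran from -20.4 to -0.251 percentage points, that of the 10 most abundant names from -0.980 to 8.03, that of plant-prefixed reads from 0.44 to 2.72 on the log2 scale, and that of expected names from 30.4 to 73.4. The last was -15.5 for names with at least 10 reads over all reads and -5.17 for names with at least 10 reads at the smallest depth (chosen after seeing the data), and both were above 0 without T1 1, at 4.0 and 6.28. Names found in T1 alone, at 10 or more reads in each library, numbered 1 to 20, and those of CON alone 2 to 5. With at least 1 read there were 11 and 11. For the named miRNAs, 10 of which changed sign in some fit, none of those 10 was called.

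The log2 difference of m1080-5p was 6.93e-05 under median-ratio (RLE) scaling and -0.67 to 0.0128 with 1 library left out. That of m0598-5p was 0.32 with DESeq2, 0.15 with edgeR, 0.25 under RLE scaling and -0.57 to 0.53 with 1 left out. That of m1358-5p was -0.996 to 0.0541 with 1 left out. For stu-miR408b-5p_R4-21L21 it was -0.0374 with the few-names term, -0.23 without CON 1 and T2 2, and -0.23 to 1.80 with 1 left out. For ath-miR5658_R1-19L21_8T-A it was -0.00722 with a pseudocount of 0.1 RPM, -0.0697 with the few-names term, -0.21 without CON 1 and T2 2, and -0.21 to 0.54 with 1 left out. That of m0552-5p was 0.20 with DESeq2, 0.16 with edgeR and -2.23 to 1.24 with 1 left out. That of m1608-3p was -0.11 to 0.88 with 1 left out. That of m0786-5p was 0.44 with DESeq2, 0.27 with edgeR, 0.0930 under TMM scaling, 0.36 under RLE scaling, 0.0938 with the few-names term and -0.50 to 0.65 with 1 left out. That of m0149-3p was 0.29 without CON 1 and T2 2 and -2.78 to 0.29 with 1 left out. That of m0064-5p was 0.0811 without CON 1 and T2 2 and -1.42 to 0.0811 with 1 left out. The causes were not tested.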
